A study of Mus musculus with 2 samples.

Results

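The 3' regulatory region of the immunoglobulin heavy chain (Igh) locus lies downstream of Igha, the last constant-region gene, and holds the hs enhancers. Its chromatin contacts were read from a 5C map of the mouse locus in resting B cells. In 5C, crosslinked chromatin is cut with HindIII and ligated. A forward primer on 1 fragment and a reverse primer on the other then pick out the joined ends, which are sequenced and counted. The region was taken as all assayed fragments of chromosome 12 (mm9) with a midpoint at or above 114455000 and below 114493000. This gave 5 fragments, 3 with forward primers (F28, F31 and F34) and 2 with reverse primers (R29 and R33). Every primer pair with at least 1 end in these fragments was included, zeros too, which made 514 of the 10584 assayed pairs (4.86%). The pairs share only 5 fragments on the enhancer side, so they are not independent of each other.

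B cells assemble the variable part of the heavy chain by joining VH, D and JH segments, and the chosen VH promoter then drives a transcript that runs into the constant-region genes. The Emu enhancer, between the JH segments and Ighm, acts in that assembly. The 3' regulatory region is a super-enhancer far downstream of the same transcript. It is known for heavy chain expression in plasma cells and for class switch recombination, in which transcription of a downstream constant gene and its switch region is turned on before the DNA is joined. Looping between the 3' regulatory region and the Emu end of the locus is well known in mature B cells. Boundary elements that bind CTCF lie past the hs enhancers, toward the 3' flank.

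The cells were resting B cells from the spleens of C57Bl/6 mice, not stimulated and selected as CD43- cells with magnetic beads, in 1 group of 2 libraries that the design text calls biological replicates. How many mice gave each library is not given in the sources used here, and 5C counts carry no expression from which the cell type could be checked. The libraries held 16067416 and 15096402 counts. The 514 pairs took 12.8% of replicate 1 and 12.9% of replicate 2. Of these counts, 42.5% and 44.1% lay in 3 pairs whose fragments share a HindIII site (F28-R29, F34-R33 and F34-R35), in which uncut or re-joined DNA cannot be told from a contact. These 3 pairs are left out of all medians below. The other 511 pairs had median counts of 336 and 328. There was 1 pair at 0 in each library, both with R29, and 0 pairs at 0 in both. With 1 group, no test between conditions was possible, and what follows describes values in each library.

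**Figure D1:**
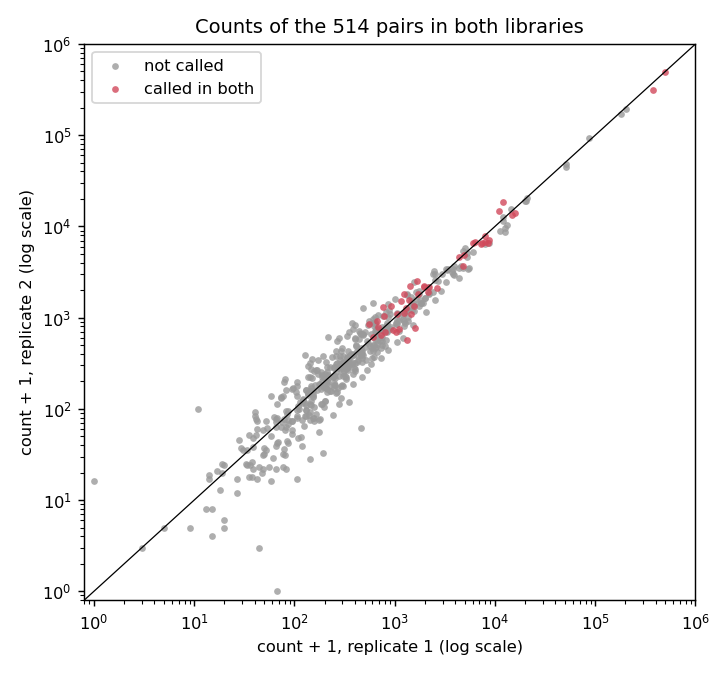
Counts of the 514 pairs in replicate 1 (x axis, count + 1) and replicate 2 (y axis, count + 1), both on log scales, with the line of equal counts. Red points are the 47 pairs called in both libraries, which all have at least 550 counts in each.

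The libraries ranked these contacts alike. Across the 511 pairs, which share fragments and primers, Spearman's rho between libraries was 0.96 for counts. Where both counts were 100 or more, which held for 387 pairs, one library exceeded the other by 1.22-fold in the median and by more than 2-fold in 22 pairs. The widest was F31-R821, toward the 5' flank, with 126 counts in replicate 1 and 391 in replicate 2.

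Each count was set against the count expected at its distance, from a LOWESS curve fitted to all 10584 pairs of that library. The ratio is called observed/expected here. The curve follows the mean and not the median, and the median ratio over all pairs that share no site was 0.441 in replicate 1 and 0.422 in replicate 2. The 511 pairs of the 3' regulatory region had median ratios of 1.33 and 1.35, and 283 of them (55.4%) were above 1 in both libraries. Among the 9836 pairs without an end in the region over the same distances, the median ratios were 0.412 and 0.398.

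The 5 fragments were far from equal. R33 (114486613 to 114491122, 4510 bp) had the highest level, with median ratios of 3.26 and 3.19 over its 97 pairs that share no site. This was rank 1 of the 108 reverse fragments, whose median level was 0.446. F31 (114477117 to 114480873, 3757 bp) had 1.87 and 2.35, rank 2 of the 98 forward fragments, and F28 (114465909 to 114474052, 8144 bp) had 1.49 and 1.38, rank 5. The other two stood in the middle of their types. F34 (114491123 to 114493851, 2729 bp) had 0.592 and 0.583, rank 37 of 98, and R29 (114474053 to 114474922, 870 bp) had 0.603 and 0.480, rank 48 of 108. R29 and F28 meet at 1 HindIII site, so neighbouring pieces of DNA differed in level by more than the libraries did. Fragment length moved only weakly with level over the locus (Spearman's rho 0.19 over 98 forward and 0.19 over 108 reverse fragments), and differences in primer recovery were not tested.

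**Figure D2:**
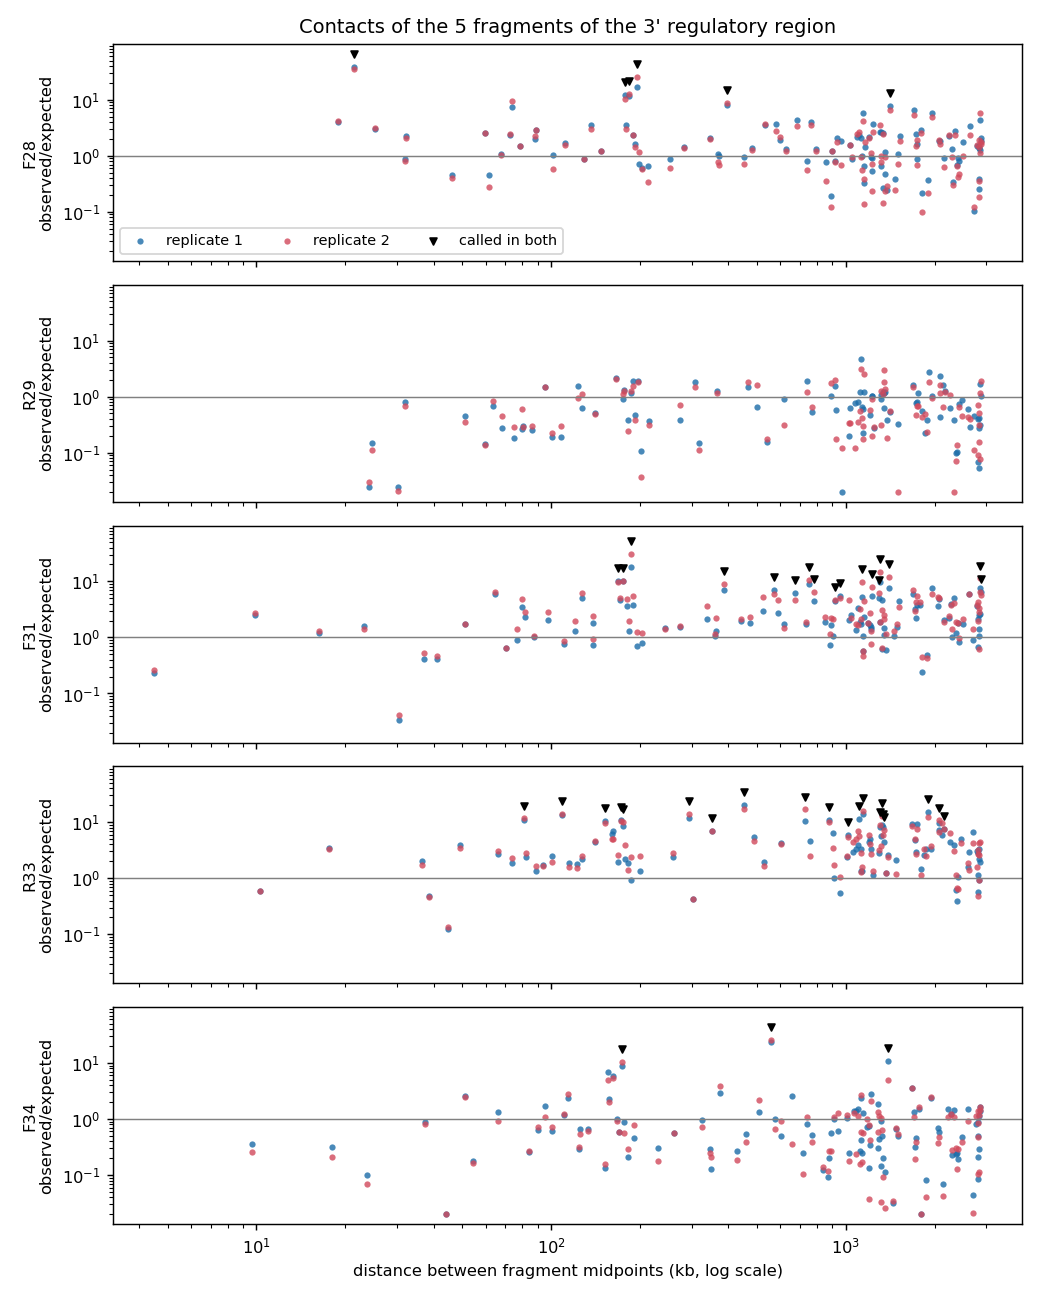
Observed/expected ratio (y axis, log scale) of every pair that shares no site against the distance between fragment midpoints (x axis, kb, log scale), 1 panel per fragment, blue for replicate 1 and red for replicate 2. Triangles mark called pairs and ratios under 0.02 are drawn at 0.02; R33 and F31 stay mostly above 1 out to the far end of the locus, while R29 and F34 do not.

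A pair was called when z, its distance from the expected count in units of the spread at that distance, was 2 or more in both libraries. Of the 514 pairs, 47 were called (9.14%), against a background of 1.45% over all 10584 pairs and 1.05% over the 10070 pairs without an end in the region. In replicate 1 alone, z reached 2 in 61 of them (background 2.12%), and in replicate 2 alone in 55 (background 1.88%). The share was above the background at each of the next settings too. A z of 1.5 gave 65 (background 2.29%), a z of 3 gave 21 (background 0.642%), and counts on the log2 scale gave 27 (background 0.671%). LOWESS spans of 0.1 and 0.4 gave 50 and 35 (backgrounds 1.83% and 1.12%). Without pairs that share a site there were 47 (background 1.46%), and without pairs under 10 counts 40 (background 1.4%). R33 had 21 called pairs of 98, F31 had 17 of 108, F28 had 6 of 108, F34 had 4 of 108 and R29 had 0 of 98. The called pair F34-R33 belongs to 2 of these fragments and shares a site. By distance, 3 of 68 pairs under 100 kb were called (4.41%, background 1.1%), 25 of 169 from 100 kb to 1 Mb (14.8%, background 1.94%), and 19 of 277 over 1 Mb (6.86%, background 1.07%). The longest called pair, F31-R851, spanned 2.87 Mb.

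Few calls were left once the general level of each fragment was taken out. When the additive level of each forward and reverse primer was removed on the log2(count + 1) scale, 3 of the 514 pairs were called (0.584%), where 1.18% of all pairs were. They were F28-R24, F34-R181 and F84-R29, and the first 2 were also among the 47. F84 (114670120 to 114672758) lies in the interval of the D segments. After iterative correction over primers without the pairs that share a site, 4 of 511 were called (0.783%, background 1.23%), namely these 3 and F34-R345. R345 had the lowest level of the 108 reverse fragments, with a median ratio of 0.0216, and the effect of so low a level on the correction was not tested. R33 and F31 had 0 called pairs in both cases. Such corrections take out whatever a fragment has in common with all its partners, so a fragment that truly contacts the whole locus and a primer that amplifies well give the same picture and cannot be told apart.

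Among the constant-region genes, median ratios were highest at the Ighd and Ighm end and lowest next to the enhancers. Median ratios of other pairs at the same distances rose in the same order, from 0.127 to 0.299 on average over libraries. Ighm and Ighd encode the classes that a resting B cell displays before any switch. Their interval (fragments from 114638362 to 114662158) had median ratios of 4.12 and 4.87 over 22 pairs at a median distance of 172 kb. The 258 pairs elsewhere in the locus over the same distances had 0.318 and 0.280. Of the 22 pairs, 19 were above 1 in both libraries and 6 were called, where 14.7% of those 258 pairs were above 1 in both and 0 were called. F28-R75 had 12.2 ± 0.717 times the expected count (SD, n = 2), and F28-R70 had 11.3 ± 1.28 times. From F31, the ratios to the same fragments were 10.1 ± 0.0952 for F31-R75 and 9.98 ± 0.0639 for F31-R70. R33 was called with F78, at 10.7 ± 0.313 times, and with F68, at 10.1 ± 0.519 times. F34 was not called here, but F34-R70 still had 5.89 ± 1.42 times the expected count, and F34-R75 had 5.87 and 5.33 times in the libraries. R75 (114652514 to 114656272) was the highest of the 25 constant-region fragments by its mean log2 ratio to the enhancer side, 3.14 ± 0.0094 (SD, n = 2). Here and below, such ranks set reverse partners, averaged over F28, F31 and F34, beside forward partners, averaged over R33 and R29, so they mix the level of the partner with that of the fragments it was read with. Over the 93 other pairs of R75 that share no site, the mean was 0.21. R70 and R75 were high in general too, at ranks 11 and 12 of the 108 reverse fragments. Their median ratios over the locus were 1.37 and 1.33, where the median level was 0.446, and each had 4 called pairs of 98.

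The genes between, which encode IgG subclasses, came next. The Ighg1 and Ighg3 interval (114558042 to 114617981) had median ratios of 2.24 and 2.54 over 15 pairs, with 2 called, both of R33. The 543 other pairs at these distances had 0.280 and 0.279, and 3 of them were called (0.552%). F54-R33 had 14673 and 13471 counts at 109 kb, and F49-R33 had 15891 and 14065 at 80.8 kb. The ratios of these pairs lay between 11.2 and 14.1 in every library. F54 was high in general, at rank 4 of the 98 forward fragments. Averaged over libraries, R33 had a median of 11.4 over its 3 pairs with the interval. F31 had 4.14 over 3 pairs with other fragments of the same interval. Over the Ighg2c and Ighg2b interval (114522182 to 114557959), the medians were 2.30 and 2.09 over 12 pairs, with 0 called. The 289 other pairs at these distances had 0.208 and 0.197. In the Igha and Ighe interval (114493852 to 114522181), which borders the enhancers, the medians were 0.698 and 0.633 over 12 pairs, again with 0 called. The 324 other pairs at these distances had 0.141 and 0.113, so ratios below 1 were still above those of other pairs. Counts of the 12 pairs were large, with medians of 11889.5 and 8720, since the expected count is high at short range. R39 (114510165 to 114522181) was the lowest constant-region partner, at a mean log2 ratio of -1.98 ± 0.0974, and it was low with its other partners too (-2.35 over 93 pairs).

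On the other side, the 3' flank (114339456 to 114450784) had median ratios of 0.747 and 0.834 over 50 pairs. The 908 other pairs at these distances had 0.236 and 0.232. The flank took 36.1% ± 1.82 (SD, n = 2) of the counts of the region outside shared sites, mostly through 1 pair. F28-R24, which joins fragments 21.5 kb apart, had 374831 and 315936 counts, or 37.5 ± 1.90 times the expected count, the highest ratio among the called pairs. R24 (114447061 to 114449887) is otherwise one of the lowest reverse fragments, rank 106 of 108, with a median ratio of 0.0417 over all its pairs that share no site. Within the region itself, the 4 pairs that share no site ranged from F34-R29, with 4405 and 2741 counts, to F31-R33, with 86995 and 92324. In ratio, F28-R33 at 18.9 kb reached 4.10 ± 0.121 while F31-R29 at 4.51 kb had 0.248 ± 0.0167. The order of these ratios was not the order of distance.

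**Figure D3:**
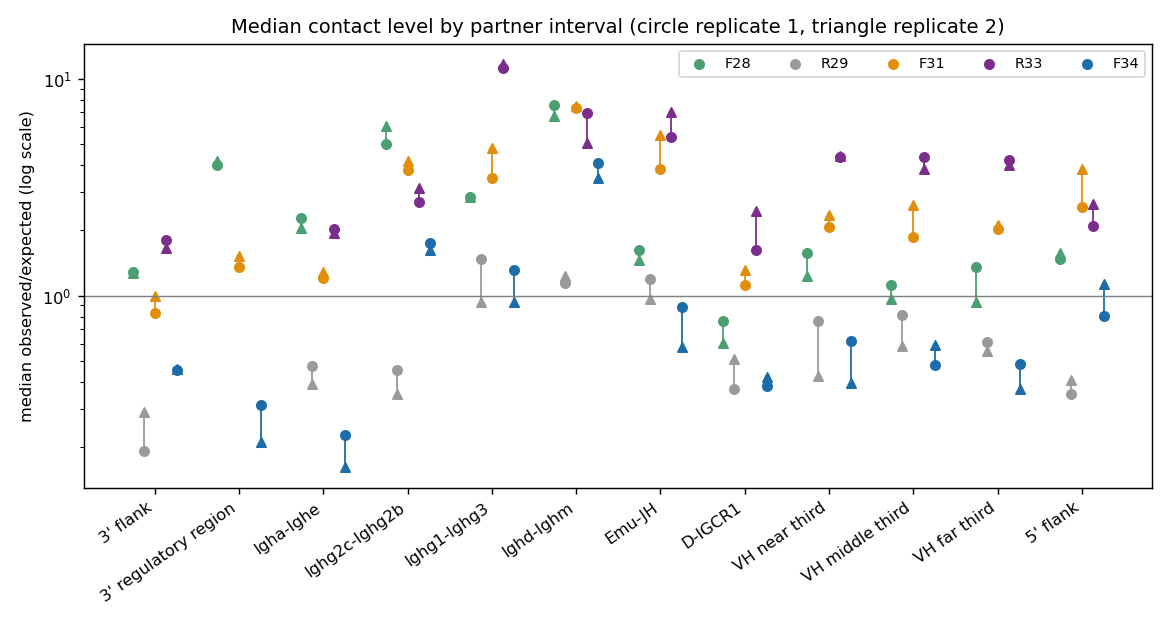
Median observed/expected ratio (y axis, log scale) of each of the 5 fragments with each interval of the locus (x axis, in genome order), circles for replicate 1 and triangles for replicate 2, joined by a line. F28, F31 and F34 are each highest with the Ighd-Ighm interval and R33 with Ighg1-Ighg3, while R29 peaks at 1.47, with Ighg1-Ighg3 in replicate 1.

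Contacts with the Emu enhancer and the JH segments rested on 1 fragment above the rest. Over the 13 pairs with the Emu-JH interval (114662159 to 114670119), the median ratios were 1.91 and 1.98, and 4 pairs were called. In the 181 pairs elsewhere over the same distances the medians were 0.319 and 0.250, with 0 called. R81 (114664824 to 114667095) was called with all 3 forward fragments. F31-R81 had 11975 and 18423 counts, or 18.0 and 30.6 times the expected count, and F28-R81 had 10915 and 14654, or 17.2 and 25.4 times. F34-R81 had 6268 and 6739 counts, or 8.73 and 10.4 times, with a mean z of 2.22. Replicate 2 was higher in all 3 of these pairs. R81 was high in general, with 16 called pairs of 98 and median ratios of 2.47 and 2.96 over its 93 pairs outside the region that share no site, rank 2 of the 108 reverse fragments after R33.

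The neighbours of R81 were lower. R33 and R29, which have reverse primers, were read with other Emu-JH fragments than R81. F80 (114664064 to 114664823), which borders R81, was called with R33 at 6050 and 6510 counts (9.35 ± 1.16 times) and had 1249 and 909 counts with R29 (1.72 ± 0.268 times). Over its 104 pairs outside the region, F80 had median ratios of 0.312 and 0.415. F82 (114667096 to 114667886) had 1551 and 2473 counts with R33 (2.23 and 3.93 times) and 306 and 227 with R29 (0.475 and 0.388 times). Its mean log2 ratio over R33 and R29 was 0.17 ± 0.187, the lowest of the 5 Emu-JH fragments on average over libraries, but R79 was lower in replicate 2. For R81 the mean over F28, F31 and F34 was 4.06 ± 0.372.

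The remaining Emu-JH fragments, R79 and R83, have reverse primers and were read with F28, F31 and F34 only. None of these pairs was called. R79 (114662159 to 114664063) had 1044 and 855 counts with F28, 884 and 1210 with F31, and 431 and 382 with F34. The ratios of these pairs lay between 0.580 and 1.98. R83 (114667887 to 114670119) had 2492 and 3276 counts with F31 (3.81 and 5.52 times), 450 and 677 with F28, and 626 and 366 with F34. R83 was below the expected count with F34 in both libraries, on either side of it with F28 (0.720 and 1.19 times), and above it with F31 in both.

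**Figure D4:**
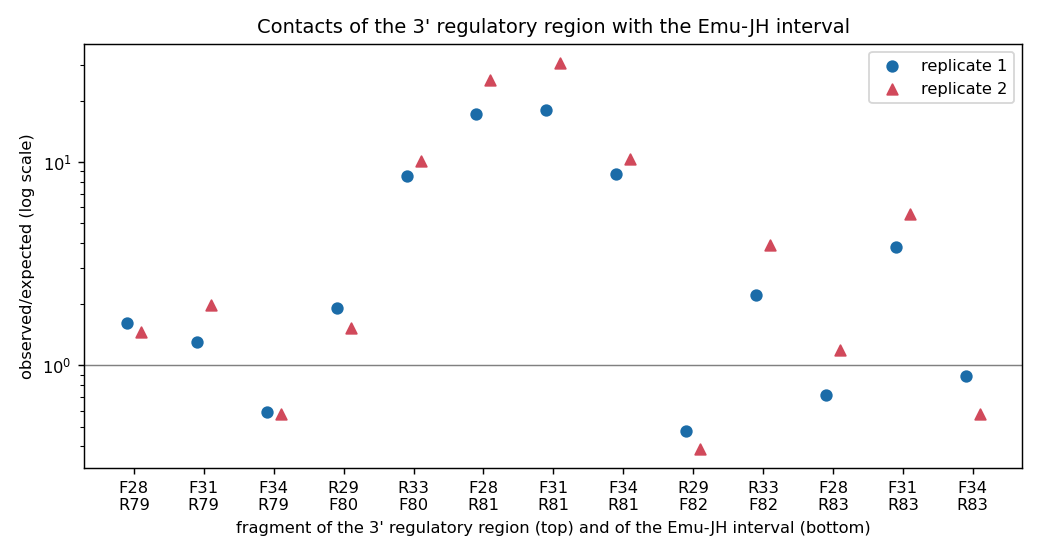
Observed/expected ratio (y axis, log scale) of the 13 pairs between the 3' regulatory region and the Emu-JH interval, blue circles for replicate 1 and red triangles for replicate 2. The 3 pairs with R81 and the pair R33-F80 stand highest, between 8.54 and 30.6.

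Past the JH segments the level dropped. The interval of the D segments and IGCR1, a control region with CTCF sites between the D segments and the VH genes, ran from 114670120 to 114794187. Its 24 pairs had median ratios of 0.744 and 0.994, the lowest of the 4 partner classes in both libraries (constant genes, Emu-JH, D and VH), and 9 pairs were above 1 in both libraries. The 826 other pairs at these distances had 0.430 and 0.378. Of those, 18.6% were above 1 in both libraries, against 37.5% of the 24 pairs. Of the 24 pairs, 1 was called (4.17%), where 0.726% of the 826 were. This was F115-R33, with 4362 and 4642 counts at 294 kb (12.8 ± 1.51 times). It was not called after additive or iterative correction of primer levels, while F84-R29 was called after both. F115 (114778143 to 114787052), near the VH side of this interval, was its highest fragment, with a mean log2 ratio of 2.19 ± 0.0244, and F117 (114791568 to 114794187), a few kb farther, was the lowest at -2.08 ± 0.139. With the rest of the locus, the mean over 106 pairs each was lower, at -0.17 for F115 and -5.23 for F117. On the enhancer side both were read with R33 and R29 only. R33 was rank 1 of the 108 reverse fragments, so these means include its general level. With additive primer levels removed, F115-R33 had a z of 0.188 and 0.254.

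With the VH genes, the median ratios were 1.35 and 1.29 over 316 pairs, and 30 were called (9.49%). The 7516 other pairs at these distances had 0.450 and 0.441, and 1.18% of them were called. The level changed little along the VH genes when they were split into 3 stretches of equal length. Medians were 1.52 and 1.67 in the stretch nearest to D, 1.22 and 1.29 in the middle and 1.23 and 1.08 in the far one. The called pairs were 16 of 119, 12 of 130 and 2 of 67 in that order. Among other pairs at the same distances the called share also fell along the stretches, at 1.64%, 0.778% and 0.569%. In 10 windows of equal length, the mean over libraries of the median ratio ran from 0.777 (116760227 to 116981159) to 2.49 (116166285 to 116273276), and the highest window had 0 called pairs of 23. R33 and F31 made 26 of the 30 calls, with 14 and 12. R33 kept median ratios of 4.33 and 4.41, 4.35 and 3.83, and 4.20 and 4.01 over the 3 stretches, and F31 kept 2.07 and 2.34, 1.86 and 2.60, and 2.04 and 2.13. F34 reached at most 0.615 and R29 at most 0.815 in any stretch and library.

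The pair with the highest z of the 514 was F34-R181, 558 kb apart, with 4947 and 4892 counts. This is 25.0 ± 1.51 times the expected count, on a forward fragment whose median ratio was below 0.6. R181 (115048372 to 115052571) was also called with F31, at 1448 and 1104 counts, and was not called with F28, at 748 and 504. Among the 124 VH fragments it had the highest mean log2 ratio, over F28, F31 and F34, 3.00 ± 0.132, against -0.50 with 95 other fragments. The lowest was R528 (116286772 to 116293346), at -3.37 ± 0.0420, which had -4.89 elsewhere. F34-R181 was also the only VH pair of the region called with additive primer levels removed, where its z was 3.73 and 3.77.

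When the called pairs were ranked by mean z, R33 held 10 of the top 20. F158-R33, 450 kb apart, had 4777 and 3691 counts (18.7 ± 2.11 times), and F233-R33, 725 kb apart, had 1682 and 2517 (13.7 ± 4.51 times). F346-R33 reached 14.8 ± 1.28 times at 1.14 Mb and F556-R33 reached 13.5 ± 1.99 times at 1.90 Mb. F272-R33, F415-R33, F404-R33, F334-R33 and F419-R33 lay between 6.95 and 10.8 times on average. Of these, F334-R33 differed most between libraries, with 1581 and 766 counts. R33 was rank 1 of the 108 reverse fragments. Its partners here ranged in general level from ranks 6 (F346) and 8 (F415) to 46 (F404) and 54 (F419) of the 98 forward fragments.

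F31 added 5 of the 20. F31-R403 had 1250 and 1819 counts at 1.31 Mb (12.3 ± 3.79 times) and F31-R235 had 1398 and 1552 at 750 kb (9.81 ± 1.19 times). F31-R840, in the 5' flank past the VH genes, had 1427 and 2221 counts at 2.84 Mb (9.41 ± 2.64 times). R435 (115877939 to 115880010) was called with F28, F31 and F34 alike. It had 953 and 739 counts with F28, 917 and 1356 with F31, and 1328 and 565 with F34. R435 is high in general, with 11 called pairs of 98 and rank 7 of 108.

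The 47 calls fell on 39 partner fragments. Of these, 33 were called with 1 fragment of the region, 4 with 2 of them (R137, R181, R70 and R75), and R81 and R435 with 3. Forward fragments are read with the same reverse primers, so such sharing includes whatever those primers have in common. Forward partners were read with R33 and R29 only, and R29 had 0 called pairs, so each was called with R33 alone. The split by number of fragments was thus set in part by primer type. Across shared partners on the Ighm and VH side, rho of the ratio was 0.83 and 0.73 between F28 and F31 over 96 fragments, and 0.75 and 0.67 between R29 and R33 over 85. F31 and R33 lie 9.87 kb apart but are read with different partner primers. Compared over 28 bins of 100 kb, their rho was -0.01 in replicate 1 and 0.26 in replicate 2. With primer levels removed it was 0.12 and 0.01. These 2 fragments shared a high level over the locus, while the bins in which each stood highest were ranked differently.

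The intervals also differed with primer levels removed. The remaining log2 difference from the expected count (the residual) had medians of 1.22 and 1.06 for Ighd-Ighm, 0.83 and 1.28 for Emu-JH, and 0.46 and 0.61 for Ighg1-Ighg3. It lay close to 0 over all 3 VH stretches, between -0.11 and 0.10, and negative for Igha-Ighe (-0.93 and -1.01) and, on average over libraries, for the 3' flank (-0.94). All 22 pairs with Ighd-Ighm had a residual above 0 in both libraries, where 41.1% of other pairs at these distances did. That included the low fragments, such as F34-R73 with 1.86 and 1.82. For Emu-JH the share was 8 of 13 against 40.3%. The D interval, lowest of the 4 classes by ratio, had residuals of 0.03 and 0.31 and 13 of 24 pairs above 0 in both libraries, so it lay below VH (0.06 and 0.05, 131 of 316 pairs) in replicate 1 and above it in replicate 2. Iterative correction gave another picture for Ighd-Ighm. Its median ratio was then 0.947 and 0.961, against 0.819 and 0.774 for other pairs at these distances, and the pairs of F28 were all below 1. F28-R70 had 0.272 and 0.252 and F28-R73 had 0.119 and 0.122, while F34-R75 had 2.17 and 2.19. The low ratios of F28 were not particular to Ighd-Ighm. Apart from F28-R24, every pair of F28 that shares no site was then below 1 in both libraries. F28-R33 had 0.222 and 0.262, and F28-R171, with the VH genes, had 0.108 and 0.128. F28-R24 held 374831 and 315936 of the 564513 and 490753 counts of F28 outside shared sites. Its effect on the other ratios of F28 was not tested. With additive levels removed, the order of R79 and R81 turned, with a corrected z of 1.83 and 1.73 for F28-R79 and 0.882 and 1.21 for F28-R81. F80-R33 had 1.80 and 1.55, and F80-R29 had 2.18 and 1.57. None of these 4 pairs passed the threshold of 2 in both libraries.

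**Figure D5:**
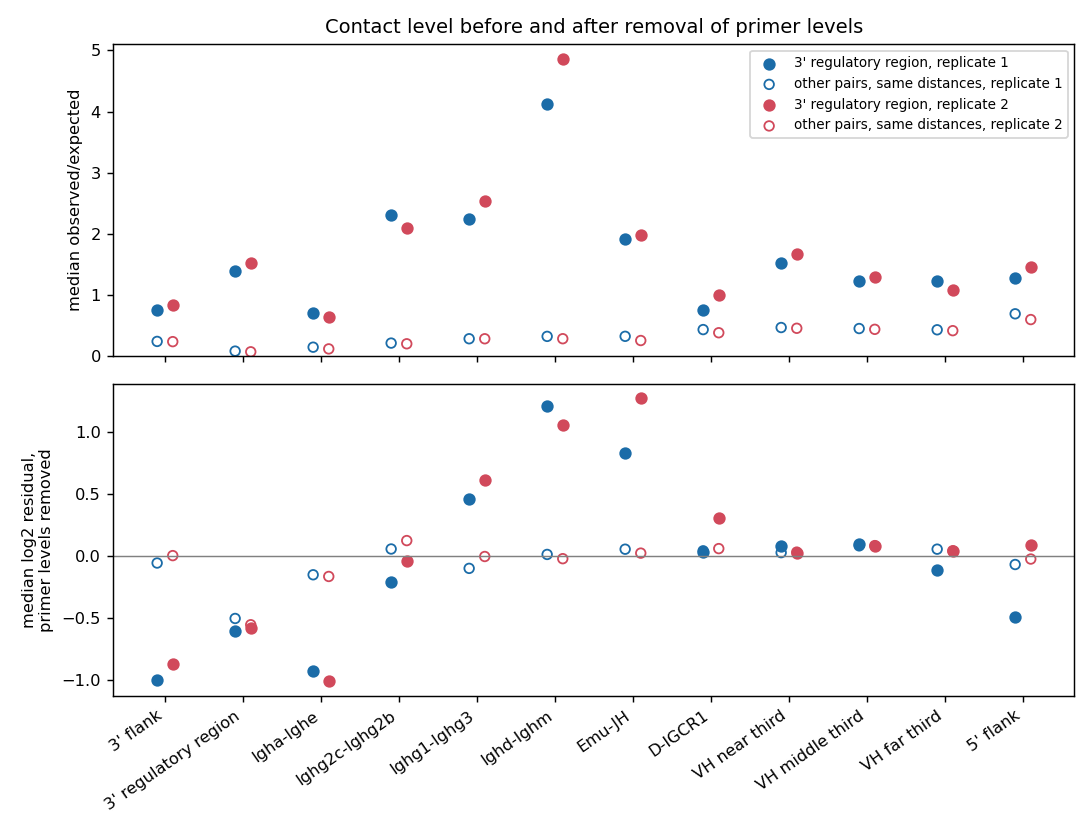
Median contact level of the 3' regulatory region with each interval (filled) and of other pairs at the same distances (open), blue for replicate 1 and red for replicate 2. The upper panel is observed/expected and the lower panel the log2 residual after removal of primer levels, in which Ighd-Ighm and Emu-JH stand highest (1.06 to 1.22 and 0.83 to 1.28).

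Neighbouring parts of the constant-region end gave partly similar values. Fragments of the Igha and Ighe interval had median ratios of 2.32 and 2.16 with Ighd-Ighm, with residuals of 0.71 and 0.49, above 0 in both libraries in 20 of 23 pairs. Fragments of the 3' flank had 0.943 and 0.941, with residuals of -0.01 and -0.12 and 33 of 90 pairs above 0. With Emu-JH, Igha-Ighe had 1.47 and 1.48 and the 3' flank 0.565 and 0.808, and their residuals were at or below 0 (-0.20 and -0.06, and -0.04 and -0.04). With the VH genes the neighbours stood at about the level of the 3' regulatory region (1.35 and 1.29), with medians of 1.42 and 1.27 for Igha-Ighe and 1.19 and 1.16 for Ighg2c-Ighg2b. Their called VH pairs were 4.28% and 4.11%, against 9.49%. Of all pairs, 14 of 504 were called for Igha-Ighe (2.78%), 13 of 514 for Ighg2c-Ighg2b (2.53%), 24 of 504 for Emu-JH (4.76%) and 7 of 1960 for the 3' flank (0.357%), where the share over all 10584 pairs was 1.45%. These differences were not tested. Some of these pairs also have an end in the 3' regulatory region.

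The limits of the region cut between unlike fragments. At the low end, F28 lies inside, with a median ratio of 1.44, and F25 (114449888 to 114450784) outside, with 0.154 and 0 called pairs of 108. At the high end, F34 lies inside, with 0.587, and R35 (114493852 to 114496828) outside, with 1.74 and 3 called pairs of 98.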

How the data were processed

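Each library is deposited as raw counts of reads for every forward and reverse primer combination, in an all-by-all matrix of the my5C tool with a step named transpurge, per the file headers. Novoalign and the build mm9 come from the submitters' processing notes, with no version or setting. No molecular identifiers are stated, so PCR copies are counted. The members, the intervals and the tests were chosen with earlier results of these data known.

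For each library, a LOWESS curve of count on log10 distance over all 10584 pairs (span 0.2, no robustness steps, statsmodels 0.14.6) gave the expected count, and z was the residual over the root of the smoothed squared residual. Medians were taken per library. Additive primer levels were removed from log2(count + 1) by 10 rounds of refitting with distance, and iterative correction ran 100 rounds. Functions were tested on simulated counts. Intervals follow approximate mm9 positions of the genes, set for this work. The gene table at hand is of another build and served for gene order only, so no fragment was assigned to a gene.

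The pairs named are all those with Emu-JH, the top 20 called pairs by mean z, and the highest and lowest partner of each class; other pairs were named after their values were seen. Alternatives covered thresholds, spans, scales, corrections, filters, interval limits and single replicates.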

Additional observations from a re-analysis of the deposited data

How the results depend on the processing

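With z at 1.5 or more in place of 2, the 47 called pairs (background 1.45%) became 65 (background 2.29%). They were 50 and 35 with LOWESS spans of 0.1 and 0.4 (backgrounds 1.83% and 1.12%). There were 47 without pairs that share a site (background 1.46%) and 40 without pairs under 10 counts (background 1.4%). A threshold of 3 gave 21 (background 0.642%) and the log2 scale 27 (background 0.671%). With additive primer levels removed there were 3 (0.584%, background 1.18%), and after iterative correction 4 (0.783%, background 1.23%). In these last 2 settings the share was below the background. Single replicates gave 55 to 61 (backgrounds 1.88% and 2.12%).

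The median ratio by partner class was 2.33 for constant genes, 1.94 for Emu-JH, 0.869 for D and 1.32 for VH. With the expected count from bin medians these were 7.20, 4.50, 2.29 and 2.74, and after iterative correction 0.701, 0.959, 0.688 and 0.720, which puts constant genes below both Emu-JH and VH. A span of 0.4 gave 2.05 for constant genes and 1.86 for Emu-JH. Without partner fragments within 2 kb of an interval limit, Emu-JH was 9.57, because R81 and F82 are then its only fragments. Single replicates gave 2.27 to 2.38, 1.91 to 1.98, 0.744 to 0.994 and 1.29 to 1.35.

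Of the 20 called pairs with the highest z, iterative correction left 2 called and turned the sign of mean z in 11: F158-R33 (-0.0229), F346-R33 (-0.371), F272-R33 (-0.122), F415-R33 (-0.556), F31-R435 (-0.120), F28-R81 (-0.458), F115-R33 (-0.117), F404-R33 (-0.0711), F31-R840 (-0.247), F28-R435 (-0.640) and F334-R33 (-0.206). Removal of additive levels turned F415-R33 (-0.347), F31-R435 (-0.282), F28-R435 (-0.0233) and F334-R33 (-0.429). Both corrections remove the level of a whole fragment by construction. Among the called Emu-JH pairs, F34-R81 (mean z 2.22) and F80-R33 (mean z 2.18) were near the threshold of 2. Neither was called with a span of 0.4, and F80-R33 was not called without pairs under 10 counts. No paired analysis was possible because there is 1 group. Depth limits pairs with R29 and F34, whose median counts were 153 and 157, and 147.5 and 150.5.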

Other observations

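The 5' flank past the VH genes (117265258 to 117350186), at least 2774 kb from the 3' regulatory region, had median ratios of 1.27 and 1.46 over 43 pairs. Of these, 2 were called (4.65%), F31-R840 and F31-R851. The 107 other pairs at these distances had medians of 0.688 and 0.594, with 0 called. With the 5' flank, F31 had medians of 2.55 and 3.84, F28 had 1.47 and 1.58, R33 had 2.08 and 2.63, and R29 had 0.353 and 0.408. Replicate 2 was higher than replicate 1 for all 5 fragments. Fold differences between libraries were ranked among pairs with 100 or more counts in both. Of the 10 widest, 4 joined this flank, and all 4 were higher in replicate 2: F31-R821, F825-R33 (214 and 618 counts), F31-R845 (487 and 1260) and F850-R33 (375 and 874).

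The pairs at 0 were F295-R29 in replicate 1, with 15 counts in replicate 2, and F685-R29 in replicate 2, with 66 in replicate 1.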
